A study of Mus musculus with 26 samples.

Results

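J amacrine cells are one of 5 amacrine subtypes sorted from the mouse retina at postnatal day 6, and their labels call them a glycinergic subset. The 2 J amacrine arrays were compared with the 8 arrays of the other 4 amacrine subtypes, 10 of the 26 arrays of the series. Each of 13 neuron subtypes had 2 replicates, taken from different litters. Retinas were dissociated with papain, fluorescent cells were sorted, and their RNA went through 2 rounds of amplification before biotin labelling and hybridization to 1-colour Affymetrix arrays.

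J amacrine cells were sorted as YFP-positive from C57BL/6 mice. Starburst amacrine cells were Kusabira Orange-positive and Thy1-negative, also from C57BL/6. MP amacrine cells were CFP-positive and positive for the VC1.1 antibody, from mice of mixed C57BL/6 and CD1 background. AII amacrine cells were GFP-positive, from a Swiss Webster and C57BL/6 cross. PaxCre amacrine cells, labelled GABAergic, were GFP-positive and from C57BL/6. No antibody gate is given for the J, AII or PaxCre amacrine sorts, and what drives the YFP reporter is not given in the sources used here. In such bulk samples fewer cells of a type and less RNA per cell cannot be told apart, and a gene shared with 2 other subtypes cannot be assigned to single cells.

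Amacrine cells are the inhibitory interneurons of the inner retina, where they shape signals passing from bipolar to ganglion cells. Most release either glycine or GABA. Glycinergic cells take glycine up through the membrane transporter GLYT1, encoded by Slc6a9, whereas GABAergic cells make GABA from glutamate with the decarboxylases encoded by Gad1 and Gad2. At this postnatal age amacrine subtypes have settled in their layers and are forming synapses.

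Levels are given as log2(intensity + 16) after quantile normalization, a scale on which the lowest common deposited value, 1, lies at 4.09. Median deposited intensities of the 10 amacrine arrays were 37.4 to 47.1, and the number of arrays limits the precision. The J replicates differed by over 1 log2 unit in 1405 of 13951 genes (10.1%), against 1.13% to 4.90% for the other 4 subtypes. The 3' to 5' ratio of the Gapdh control probes, a measure of RNA integrity and amplification, was 17.5 and 19.0 on the J arrays and 3.43 to 11.6 (median 9.68) on the 8 others. For actin it was 28.3 and 31.8 against 3.69 to 31.9 (median 21.0). The J arrays thus lay above the other amacrine arrays for Gapdh and within their range for actin, and the part of this in the results was not tested.

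The label was first set against transmitter genes. Slc6a9 read 11.43 and 11.95 on the J arrays, beside 11.81 and 11.68 in AII cells, the best known glycinergic type. It read 9.66 and 9.08 in MP, 8.44 and 8.13 in PaxCre and 5.86 and 6.17 in starburst cells. On this probe set the J arrays lay with the AII arrays and above those of the remaining 3 subtypes. The difference of J from AII cells was -0.06 ± 0.22 (SE, 2 against 2 arrays; limma adjusted p = 0.876), with a sign that turned under other scalings. Against MP cells it was 2.32 ± 0.22 (adjusted p = 1.41e-06). With the next brightest probe set of the gene neither Slc6a9 call was made, at 0.33 against MP cells (adjusted p = 0.206) and 0.53 against the mean of the 4 subtypes (adjusted p = 0.0131), where the first probe set gave 2.84. Slc6a5, the glycine transporter of nerve terminals in the spinal cord and brainstem, was dim in J cells at 5.73 and 5.91, and its values in the others were 5.83 to 6.39. Pax6, a transcription factor of amacrine cells, read 11.39 and 11.09 in J cells and did not pass the test (0.46 ± 0.21, adjusted p = 0.148).

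Lists of other retinal cells held from 0 to 4 called genes each in the comparison with the mean of the 4 subtypes, which called 2.8% of all genes higher and 3.26% lower. None of 11 microglial, 8 vascular or 3 astrocyte genes tested was called by limma in either direction, and none had an unadjusted p under 0.05. The mean level of the microglial list was 6.46 and 5.51 on the J arrays and 5.39 to 7.25 on the others. Of 14 bipolar cell genes 3 were called higher, Grik1 among them, and 1 lower, Isl1. Of 14 ganglion cell genes 1 was called higher and 1 lower, of 5 horizontal cell genes 1 lower (Calb1) and of 11 genes of cycling cells and progenitors 2 lower. Among 10 rod genes 1 was called lower, and 0 without J replicate 2. Of 11 Muller glia genes 2 were called higher, the glutamate transporter Slc1a3 and the intermediate filament gene Vim. The mean level of that list was 7.79 and 7.49 on the J arrays, within the 6.23 to 7.85 of the others. Vim was no longer called without J replicate 1 (1.68, adjusted p = 0.0526). Of the 11 Muller glia genes 5 were higher and 0 lower against AII cells alone, and 3 and 0 against MP cells. Against starburst cells 4 were higher and 2 lower, and against PaxCre cells 1 and 1. The starburst pair called 5.32% of all genes higher and 5.91% lower, and the PaxCre pair 1.35% and 4.09%. In the comparison with MP cells alone 7 of 10 rod genes were lower and 0 higher (median -2.01). There 3 of 6 cone genes were lower and 0 higher, and 5 of 14 bipolar genes lower and 2 higher. That comparison called 5.06% of all genes lower and 5.22% higher. Against AII cells alone 7 of 14 ganglion cell genes were higher and 0 lower, and 3 rod genes lower and 0 higher. There 11.3% of all genes were higher and 8.21% lower. The part of these cell types in the results was not tested.

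In the comparison of J cells with the mean of the other 4 subtypes, 391 genes were called higher (2.8% of 13951 tested) and 455 lower (3.26%). Genes were called from 1 log2 unit upwards where the limma adjusted p lay under 0.05. Both J arrays lay above all 8 others for 141 of the higher genes (1.01% of genes tested) and below them for 201 of the lower genes (1.44%). At an unadjusted p under 0.05, 13% of all genes were higher and 15.2% lower. The spread in this test is that between litters of a subtype, pooled for each gene over the 13 subtypes of the series. It is not the spread of the J pair itself, which was the widest of the 5 amacrine pairs (10.1% of genes over 1 log2 unit apart). When subtype was instead a random block over the 10 arrays, with a correlation of 0.635 within a subtype, 1 gene was called higher (Snai2) and 0 lower, with 133 and 180 genes at an unadjusted p under 0.05. The calls therefore hold for these 5 subtypes and not for amacrine subtypes at large. Without J replicate 1 the counts were 597 and 672, and without J replicate 2 they were 342 and 425.

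Of the called genes named in the text, 70 had a second tested probe set, and with it 39 kept their call, 22 lost it and 9 changed sign. Among the higher genes with both J arrays above all 8 others, Loxl1, Cdh22 and Nr4a2 had the largest differences. Loxl1, a lysyl oxidase-like enzyme that cross-links elastin, read 8.94 and 10.63 on the J arrays, and the 8 others lay at 4.17 to 5.81 (median 4.36). Its difference was 5.10 ± 0.52 (34.3-fold on this scale; adjusted p = 3.26e-06), although the next brightest probe set of the gene gave -0.060 (adjusted p = 0.823). Both J arrays stood clear of every other amacrine array, most of which were near the floor. Cdh22, a classical cadherin, read 11.80 and 12.12 in J cells against 5.59 to 9.21 (median 7.48). It differed by 4.51 ± 0.19 (22.7-fold; adjusted p = 8.71e-11), and J cells had the highest level among the 13 subtypes. Nr4a2, an orphan nuclear receptor known from dopamine neurons, read 12.24 and 11.83, with 11.08 and 10.86 in PaxCre cells and at most 7.06 in the remaining arrays. Its difference from the mean was 4.50 ± 0.37 (adjusted p = 2.88e-07) but that from PaxCre cells was 1.06 ± 0.47 (adjusted p = 0.206). The 4 genes given as markers of the subtype, Loxl1, Cdh22, Nr4a2 and Slc6a9, were named with these data known and their values are no independent check.

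Snai2, a zinc finger repressor of the Snail family, read 9.10 and 9.49 on the J arrays and 4.43 to 6.01 on the 8 others (difference 4.34 ± 0.52, adjusted p = 2e-05). J cells stood above every amacrine array, and the J ganglion cells of the series, at a mean of 7.85, had the next highest level of the 13 subtypes. Shisa9, an auxiliary protein of AMPA receptors, read 9.01 and 9.03 against 4.35 to 6.36, and among subtypes W3 ganglion cells came nearest at 8.68. Its difference of 4.23 was 0.59 with the next brightest probe set, under the limit of 1, and 1.05 with the median over probe sets. Fgf18, a secreted growth factor, read 9.38 and 9.79 against 4.71 to 7.54, with the highest other values in MP cells. The receptor tyrosine kinase gene Alk reached 9.12 and 9.86 against 5.73 to 7.37. These genes were called in J cells against each of the 4 other amacrine subtypes.

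Among the 15 separated genes with the largest rises were also Gabrb1, Tmem215, Rpp25, Osbpl3, Cryab, Grik1, Gm20383, Nwd2 and Gckr, with differences of 3.20 to 3.73. Osbpl3, an oxysterol-binding protein, read 8.86 and 8.54 in J cells and 4.10 to 6.75 elsewhere. Tmem215 was also high in MP cells, at 10.56 and 10.17 beside 11.03 and 11.52 in J cells, a difference of 0.91 ± 0.53 that was not called. Nwd2 had its nearest values in AII cells, 9.56 and 9.37 beside 10.45 and 11.39. Cryab, a small heat shock protein, lost its call without J replicate 2 (2.59, adjusted p = 0.16), and its next brightest probe set gave -0.12.

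**Figure D1:**
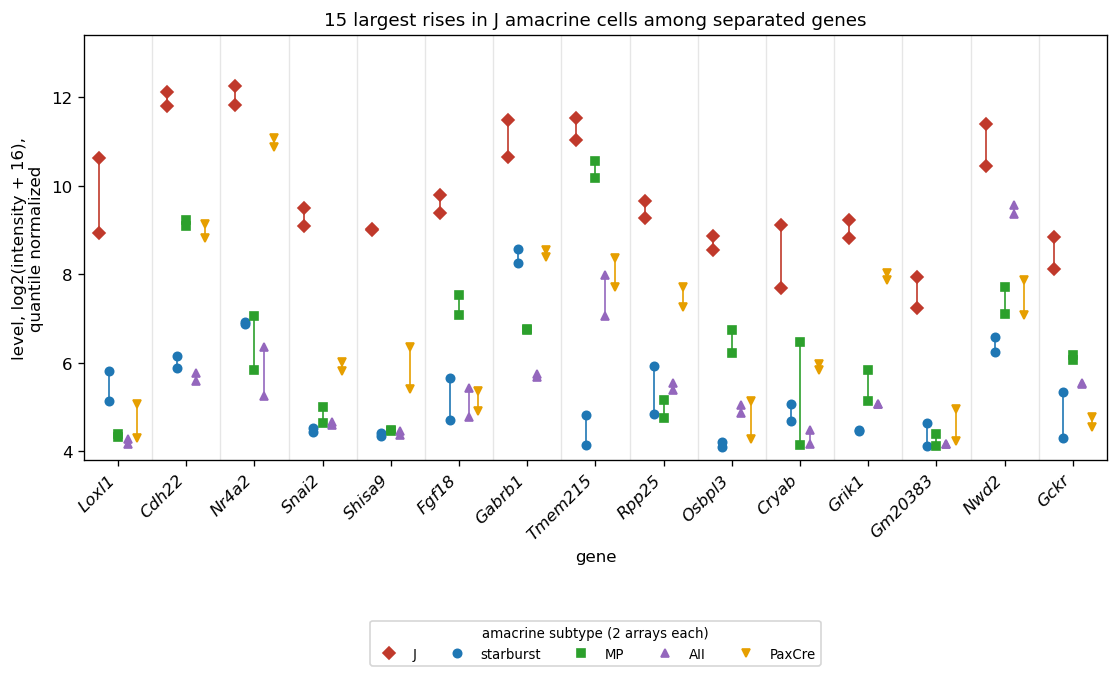
Levels of the 15 genes with the largest rise in J amacrine cells among genes called and separated in all 10 arrays; the vertical axis is log2(intensity + 16) after quantile normalization and each point is 1 array, with a line joining the 2 replicates of a subtype. Both J points lie above the 8 others for each gene, and PaxCre cells are close for Nr4a2 (11.08 and 10.86) and MP cells for Tmem215 (10.56 and 10.17).

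Genes lower in J cells were led by Isl1, a LIM homeobox factor of starburst, bipolar and ganglion cells. It read 4.82 and 6.62 on the J arrays and 7.52 to 12.82 (median 10.15) on the 8 others, a difference of -4.43 ± 0.30 (adjusted p = 3.07e-08). J cells had the lowest level of the 13 subtypes, and starburst cells were highest among the 5 amacrine subtypes at 12.82 and 12.79. Calb2, the calcium-binding protein calretinin, read 6.25 and 7.04 against 7.54 to 11.95 (difference -3.32 ± 0.37, adjusted p = 8.57e-06). Calretinin marks starburst cells and several other amacrine types. Calb1, its relative calbindin, was also called lower (-3.55 ± 0.62, adjusted p = 0.000823), at 6.16 and 5.0 against 5.94 to 12.73, with some overlap of the arrays.

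Hadh, a mitochondrial enzyme of fatty acid oxidation, read 4.88 and 4.81 in J cells and 6.72 to 8.64 in the others. Fign, a microtubule-severing protein, read 5.48 and 5.49 against 6.23 to 8.79. Zfp385b, a zinc finger protein, read 7.86 and 7.56 against 9.55 to 10.81. In each of these the J arrays agreed closely and lay apart from the 8 others. The call of Fign was lost with the next brightest probe set and with the median over probe sets. The transcription factor genes Myb, Jdp2 and Trps1 also fell, but their J arrays were far apart. Jdp2 read 8.56 and 5.20, and its difference of -2.93 became -4.61 without replicate 1 and -1.25 without replicate 2, while its next brightest probe set gave 0.20. Myb read 7.53 and 5.12, and its difference of -3.13 became -1.93 without replicate 2. Trps1 read 6.74 and 4.57, with -2.58 becoming -1.49. J replicate 2 lay below replicate 1 in 303 of the 455 lower genes and in 151 of the 391 higher genes. That share over all genes was not computed. In the lower genes replicate 2 was over 1 log2 unit lower in 98 and over 1 higher in 27. These counts were 19 and 49 in the higher genes, and 664 and 741 over all 13951 genes.

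The rest of the 12 largest separated falls were Sema3d, Gabra5, Jag1 and Abca4. Sema3d, a secreted guidance cue, was at 4.44 and 4.82 in J cells and also low in PaxCre cells at 4.95 and 5.54, and its next brightest probe set gave 0.044. Jag1, a Notch ligand, fell by 2.39 but was not called without J replicate 1 (adjusted p = 0.0553) or replicate 2 (0.117), and its next brightest probe set gave 0.055.

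**Figure D2:**
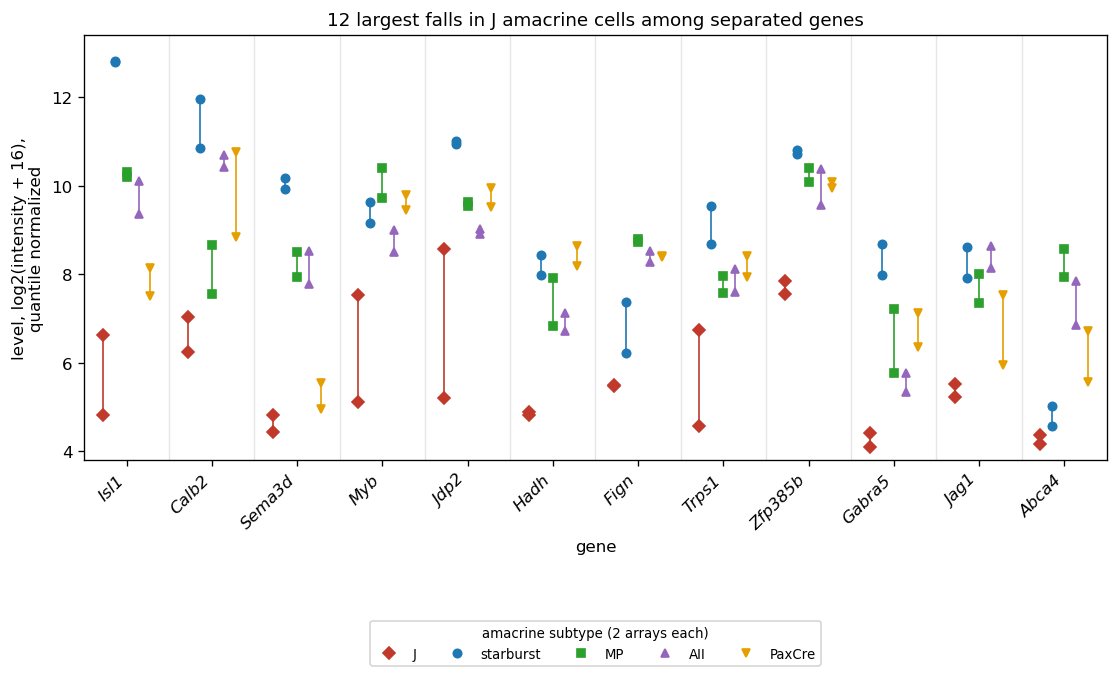
Levels of the 12 genes with the largest fall in J amacrine cells among genes called and separated in all 10 arrays, plotted as log2(intensity + 16) after quantile normalization with 1 point per array. Both J points lie under the 8 others for each gene, and the 2 J arrays are far apart for Jdp2 (8.56 and 5.20), Myb (7.53 and 5.12) and Trps1 (6.74 and 4.57).

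The J arrays had high levels of Slc6a9 and of Gad1, the decarboxylase gene of GABA synthesis. Of 7 glycinergic amacrine genes tested 5 rose and 0 fell, with 0 falling at an unadjusted p under 0.05, and the median difference was 1.58 beside -0.03 over all genes tested. Of 5 GABAergic genes 3 rose and 0 fell (median 1.45), and 1 was lower at an unadjusted p under 0.05. Over all genes 2.8% were called higher and 3.26% lower, and 15.2% were lower at an unadjusted p under 0.05. Of the 5 glycinergic genes called, all but Slc6a9 encode transcription factors. The counts differed by subtype. The GABAergic median was -0.84 against PaxCre cells, with 0 genes higher and 0 lower, and -0.11 against starburst cells (2 and 1). It was 0.82 against MP cells (2 and 0) and 2.15 against AII cells (4 and 0). The glycinergic median was -0.46 against MP cells (2 and 0), 0.27 against AII (3 and 0), 2.52 against PaxCre (4 and 1) and 3.97 against starburst cells (5 and 0). Over all genes 1.35% were higher and 4.09% lower against PaxCre cells, and 5.32% and 5.91% against starburst cells. The shares were 5.22% and 5.06% against MP cells and 11.3% and 8.21% against AII cells. Gad1 read 11.24 and 10.40 in J cells, 12.15 and 12.44 in PaxCre and 12.19 and 12.59 in starburst cells, and 5.73 to 6.45 in AII and MP cells. The J levels of Gad1 were below those of PaxCre and starburst cells, and nearer to them than to those of AII and MP cells. The difference was 4.62 ± 0.48 against MP cells (adjusted p = 3.14e-06) and -1.48 ± 0.48 against PaxCre cells (adjusted p = 0.0708). Against the mean of the 4 subtypes Gad1 rose by 1.66 ± 0.38 (adjusted p = 0.00669), which was not called without J replicate 1 (1.24, adjusted p = 0.114) and turned to -1.53 against the C57BL/6 subtypes, starburst and PaxCre, where it was called lower (adjusted p = 0.0184). The next brightest probe set of Gad1 gave 0.13 against the 4 subtypes (adjusted p = 0.801). Gad2 was 7.61 and 7.26 in J cells and 7.55 to 8.42 in the others, and was not called. With its next brightest probe set Gad2 rose by 1.02 against the 4 subtypes (limma adjusted p = 0.00216), which met both limits for a call. The median over its probe sets gave 0.19 (adjusted p = 0.451), so the probe sets of Gad2 differed. Slc32a1, the vesicular transporter of both GABA and glycine, read 11.06 and 11.13, within the 10.34 to 11.65 of the others.

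Several transcription factors of amacrine subtypes were shared between J cells and 1 or 2 others. Ebf1 and Ebf3, early B-cell factors of glycinergic amacrine cells, were high in J and MP cells only among the 5 subtypes. Ebf1 read 11.78 and 12.14 in J cells, 11.62 and 12.13 in MP cells and at most 6.67 elsewhere. Its difference from MP cells was 0.08 ± 0.40 (adjusted p = 0.916), and from AII cells 6.58 ± 0.40 (adjusted p = 1.84e-09). Ebf3 read 10.89 and 11.27 beside a mean of 12.12 in MP cells, and 5.08 to 7.06 in the rest. Tcf4, a basic helix-loop-helix factor, was at 12.30 and 12.35, near MP and AII cells, and its call against the mean of 4 was lost without J replicate 1 (adjusted p = 0.0683) or replicate 2 (0.0985).

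Neurod6, a basic helix-loop-helix gene that marks amacrine cells with neither GABA nor glycine, took an intermediate level in J cells. It read 7.84 and 8.17 there, 10.92 and 10.86 in MP cells and 4.22 to 4.45 in the other 3 subtypes. The arrays of J cells fell in neither range, 2.89 ± 0.18 under MP cells (adjusted p = 1.14e-08) and 3.60 ± 0.18 above AII cells (adjusted p = 2.61e-10). Ppp1r17, a phosphatase inhibitor of the same list, read 10.54 and 10.58 beside 11.31 in MP and 9.86 in AII cells (means), and about 5 log2 units less in starburst and PaxCre cells. Of 5 genes of that list tested against the mean of the 4 subtypes, these 2 rose and Fbn2 fell, with a median of 0.07. At an unadjusted p under 0.05, 2 were higher and 2 lower. Over all genes 2.8% were called higher and 3.26% lower, and 13% were higher and 15.2% lower at that unadjusted p.

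Other factors were shared with PaxCre cells. Meis2, a homeobox gene of GABAergic amacrine cells, read 12.73 and 12.22 beside a PaxCre mean of 12.96 (difference -0.49 ± 0.45, adjusted p = 0.597). Starburst and AII cells lay between 6.21 and 7.08 and MP cells at a mean of 11.08. Tfap2c, an AP-2 factor, read 11.50 and 11.40 beside 12.41 in PaxCre cells, although its next brightest probe set gave a difference from the 4 subtypes of -0.27. Lhx9, a LIM homeobox gene, was intermediate at 7.86 on both J arrays, against a mean of 10.87 in PaxCre cells and 4.39 to 5.41 elsewhere. Lmo3, a LIM-only cofactor, rose against each of the 4 subtypes (8.02 and 7.63 against 4.75 to 6.5).

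The starburst and AII lists were counted against a mean of 4 subtypes that includes the arrays of those subtypes, so each pair is given as well. Of 10 starburst genes 0 rose and 4 fell, and 9 were lower and 0 higher at an unadjusted p under 0.05. The shares of all genes were 2.8% called higher and 3.26% lower, and 13% higher and 15.2% lower at that unadjusted p. Against starburst cells alone 8 were lower, whereas 1 was higher and 1 lower against AII cells, 2 were lower against MP cells and 3 against PaxCre cells. In these pairs 5.91% (starburst), 8.21% (AII), 5.06% (MP) and 4.09% (PaxCre) of all genes were lower. The shares of all genes higher were 5.32%, 11.3%, 5.22% and 1.35% in the same order. Chat, the acetylcholine-synthesizing enzyme, read 6.36 and 6.46 in J cells beside 8.91 and 7.79 in starburst cells. Sox2 fell by 2.11 but not without J replicate 2 (-1.23, adjusted p = 0.293). Of 9 AII genes 1 rose and 4 fell. Against AII cells alone 0 of them were higher and 6 lower, against MP cells 1 and 4, against PaxCre cells 2 and 2, and against starburst cells 4 and 2 (median 0.33). Gjd2, the connexin-36 gene through which AII cells are coupled, read 8.86 and 8.57 against 8.90 to 12.10 (difference -1.44 ± 0.14, adjusted p = 2.1e-06). That call was lost with the next brightest probe set, with the median over probe sets and without AII cells on the other side. Dab1, the reelin pathway adaptor used to label AII cells, rose by 1.58 but not without J replicate 2 (1.14, adjusted p = 0.0529). Nfia fell by 1.65, and its next brightest probe set gave 0.22. In the catecholaminergic list Nr4a2 was the gene called of 6 tested, with 3 higher at an unadjusted p under 0.05. Th, the rate-limiting enzyme of dopamine synthesis, read 5.44 and 5.92 beside 5.20 to 6.61 in the others, and Ddc, the next enzyme of that pathway, read 5.64 and 5.20.

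**Figure D3:**
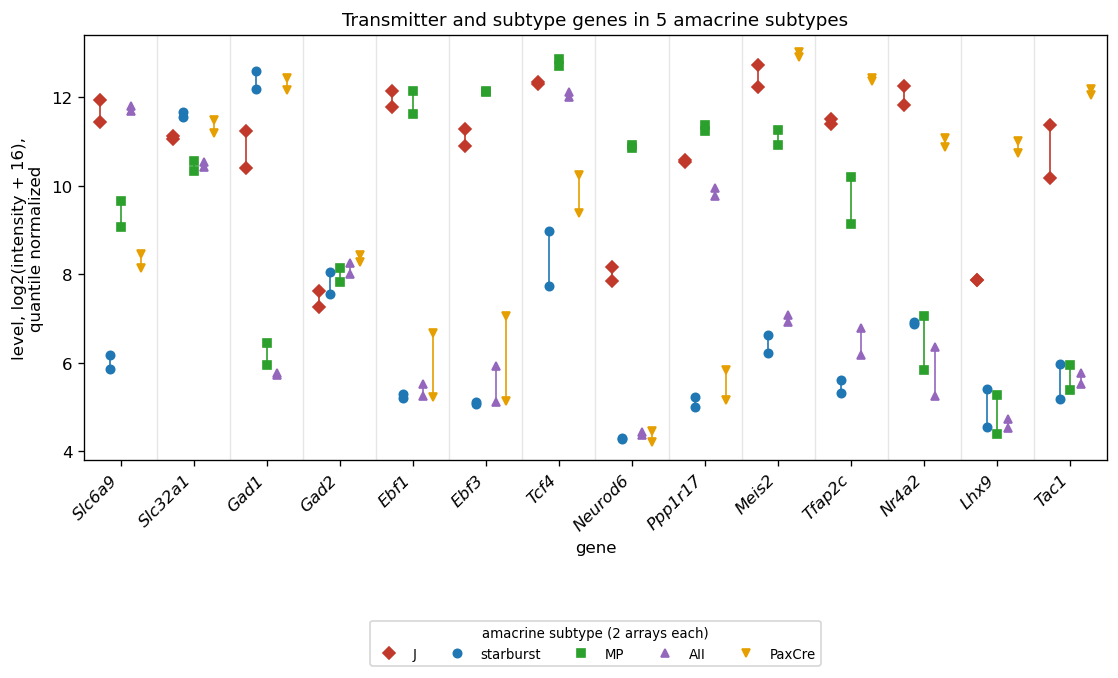
Levels of 14 transmitter and subtype genes in the 5 amacrine subtypes, as log2(intensity + 16) after quantile normalization with 1 point per array and a line joining replicates. J cells lie with AII cells for Slc6a9, with MP cells for Ebf1, with PaxCre cells for Meis2, and between the extremes for Neurod6 (7.84 and 8.17) and Lhx9 (7.86 on both arrays).

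The pairwise comparisons, each of 2 against 2 arrays with the shared J arrays on one side, gave the fewest calls against PaxCre cells. There 189 genes were higher (1.35% of genes tested) and 570 lower (4.09%) in J cells, 759 in all (5.44%). Against MP cells 728 were higher (5.22%) and 706 lower (5.06%), together 10.3%. Against starburst cells 742 were higher (5.32%) and 825 lower (5.91%), together 11.2%. Against AII cells 1580 were higher (11.3%) and 1146 lower (8.21%), together 19.5%. The PaxCre count fell to 389 without PaxCre replicate 2. Across the 2000 most variable genes, a description over genes that share the same arrays, the J arrays correlated with each other at 0.854. They correlated with PaxCre arrays at 0.694 to 0.789, with MP at 0.629 to 0.674, with starburst at 0.457 to 0.513 and with AII at 0.423 to 0.490. Among the 391 higher genes PaxCre had the highest level of the 4 other subtypes for 206 (52.7%), MP for 100, starburst for 50 and AII for 35. Among the 455 lower genes MP had the lowest level of the 4 for 137 (30.1%), starburst for 133 (29.2%), PaxCre for 109 (24%) and AII for 76 (16.7%). These genes were chosen with the same arrays and the shares over all genes were not computed, so the counts are no independent sign of likeness.

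**Figure D4:**
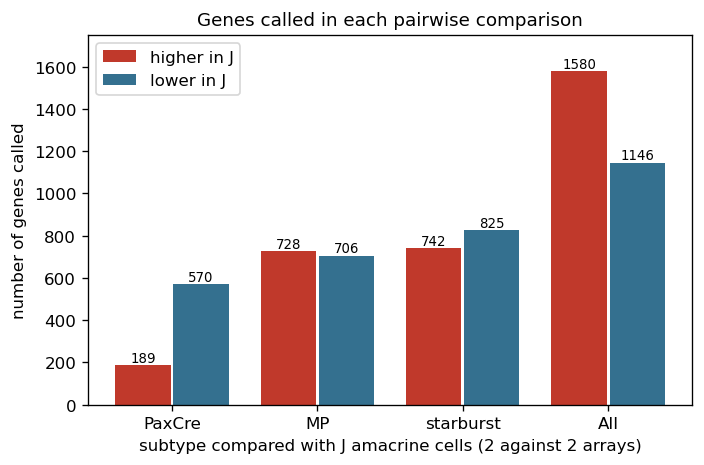
Number of genes called in each comparison of J amacrine cells with 1 other subtype, with the bars from 0 for genes higher and lower in J cells. The comparison with PaxCre cells had 189 higher and 570 lower genes, and that with AII cells 1580 and 1146.

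Against all 4 subtypes at once, 35 genes were higher (0.251%) and 40 lower (0.287%). These genes were chosen for J levels beyond those of the 4 other amacrine subtypes in the same arrays. Ranks of J among the 13 subtypes are therefore no independent check, and their shares over all genes were not computed. J cells had the highest level of the 13 subtypes for 30 of the 35 and the lowest for 33 of the 40. Without J replicate 1 the counts were 84 and 138, and the lower count was 25 and 23 without PaxCre replicate 1 and 2. By the smallest of the 4 differences, the leading higher genes were Loxl1 (4.31, against starburst cells), Snai2 (3.38), Shisa9 (3.13), Gm20383 (3.0), Cdh22 (2.80), Gabrb1 (2.59), Gckr (2.36) and Alk (2.30). For Loxl1 the next brightest probe set gave -0.24 in that pair. The leading lower genes were Myb, Zfp385b, Tdrd7, Trps1, Isl1, Hadh, Jdp2 and Grid1, with smallest differences of -2.43 to -1.79. Tdrd7, a tudor domain protein of RNA granules, read 6.91 and 5.78 against 8.24 to 9.30, and its next brightest probe set gave 0.016.

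Because Snai2 was among these genes and Snail-type repressors bind the E-box CAGGTG, promoter windows of the genes called against all 4 subtypes were searched for it on both strands, from 250 bases before to 50 after each start (RefSeq, GRCm38.p6). The E-box stood in 4 of 29 windows of the higher genes (13.8%) and in 12 of 46 windows of the lower genes (26.1%), beside 20.2% of all 32851 windows. An element of Nr4a receptors, AAAGGTCA, was in 1.51% of all windows and in 0 of both sets. The core of an EBF site, CCCNNGGG, was in 13.7% of all windows, 13.8% of those of higher genes and 15.2% of those of lower genes. Windows were found for 24 of the 35 higher and 32 of the 40 lower genes, and some genes had several. By gene the E-box stood in 4 of the 24 and 11 of the 32, beside 6098 of all 27025 genes with windows. The 3 windows printed belong to a cadherin gene with no E-box (Cdh22, chr2:165234688-165234987, minus strand), a higher gene with one (Gabrb2, chr11:42420190-42420489, plus strand) and a lower gene with one (Zfp385b, chr2:77816767-77817066, minus strand). Gabrb2 has 3 windows and Zfp385b has 4, and the first of each that holds an E-box is printed. Capitals mark the E-box, here read as CACCTG.
Cdh22: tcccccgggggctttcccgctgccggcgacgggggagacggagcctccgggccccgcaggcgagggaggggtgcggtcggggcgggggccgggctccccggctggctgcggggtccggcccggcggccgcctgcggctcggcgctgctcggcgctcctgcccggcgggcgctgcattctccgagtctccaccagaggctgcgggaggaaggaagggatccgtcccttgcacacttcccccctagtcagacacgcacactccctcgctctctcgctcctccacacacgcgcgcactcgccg
Gabrb2: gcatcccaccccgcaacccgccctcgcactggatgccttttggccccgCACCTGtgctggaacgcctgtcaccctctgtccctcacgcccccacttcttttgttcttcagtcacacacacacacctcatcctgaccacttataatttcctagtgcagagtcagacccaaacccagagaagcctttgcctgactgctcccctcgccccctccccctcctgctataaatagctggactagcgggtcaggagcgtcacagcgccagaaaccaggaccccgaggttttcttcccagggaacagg
Zfp385b: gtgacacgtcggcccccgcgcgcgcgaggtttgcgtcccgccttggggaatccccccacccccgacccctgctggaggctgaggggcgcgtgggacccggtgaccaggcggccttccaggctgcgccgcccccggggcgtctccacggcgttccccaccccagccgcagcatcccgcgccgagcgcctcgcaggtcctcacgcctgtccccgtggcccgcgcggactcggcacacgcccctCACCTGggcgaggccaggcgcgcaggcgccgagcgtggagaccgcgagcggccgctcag
These matches describe the letters of the windows and name no bound site.

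GABA-A receptor subunits, the parts of the chloride channels through which amacrine cells receive GABA, included genes that rose and genes that fell in J cells. Of 11 subunit genes tested 5 rose and 3 fell, beside 2.8% and 3.26% of all genes, and their median difference was 0.25. Gabrb1 read 11.47 and 10.65 in J cells and 5.67 to 8.56 (median 7.51) in the 8 others (difference 3.73 ± 0.21, adjusted p = 4.61e-09). Gabrb2 read 11.25 and 11.47 against 7.50 to 10.10 (2.69 ± 0.21, adjusted p = 1.29e-07). Both beta subunit genes were called against each of the 4 subtypes. Gabra2 read 10.71 and 10.68, with starburst cells close at a mean of 10.20 (difference 0.50 ± 0.36, adjusted p = 0.402). Gabra4, at 8.59 and 7.79, also lay near starburst cells (mean 8.40), and Gabrg1, at 9.21 and 9.55, near PaxCre cells (difference 0.36 ± 0.32, adjusted p = 0.592).

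The subunit genes that fell were Gabra5, Gabrd and Gabrr1. Gabra5, an alpha subunit of receptors mostly outside synapses, was near the floor in J cells at 4.09 and 4.41 and read 5.33 to 8.67 in the others (-2.53 ± 0.31, adjusted p = 2.43e-05). Gabrd, the delta subunit, was low in J cells at 5.45 and 5.43, as in the other subtypes except starburst cells with a mean of 10.45. With the next brightest probe set the differences were 0.22 for Gabra2, 0.27 for Gabrg1 and -0.0070 for Gabrd, none of them called. Gabrr1, a rho subunit best known from bipolar cells, lost its call without J replicate 1 (-1.20, adjusted p = 0.12) or replicate 2 (-1.46, 0.0748).

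**Figure D5:**
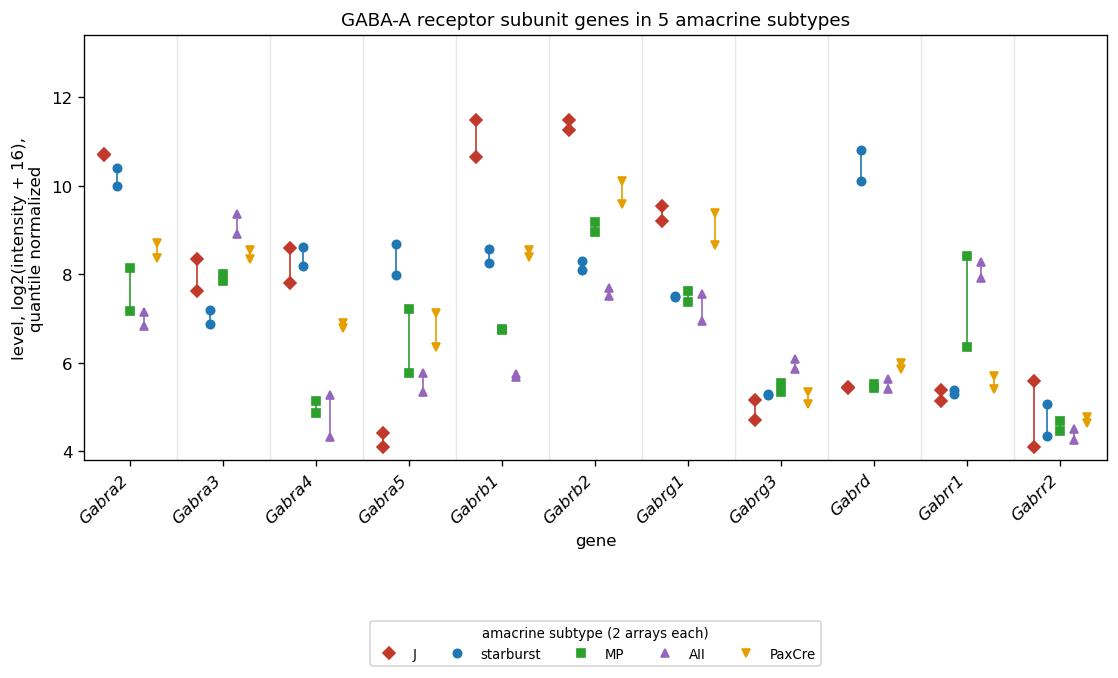
Levels of the 11 GABA-A receptor subunit genes tested in the 5 amacrine subtypes, as log2(intensity + 16) after quantile normalization with 1 point per array. The J arrays lie above the 8 others for Gabra2, Gabrb1 and Gabrb2 and under them for Gabra5.

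Of 5 glycine receptor genes 2 rose, with a median of -0.09 over the list. Glra2 rose by 1.02 ± 0.17 through a low level in starburst cells, and its difference was under 1 without J replicate 1 (0.86) or starburst replicate 2 (0.98), and at the limit without PaxCre replicate 1. Of 14 ionotropic glutamate receptor genes 2 rose and 2 fell. For both lists the shares over all genes were 2.8% called higher and 3.26% lower. Grik1, a kainate receptor subunit, read 8.82 and 9.22 in J cells, 7.87 and 8.03 in PaxCre cells and 4.46 to 5.83 in the others. Grik3, another kainate subunit, was near the floor at 4.29 and 4.33 and 8.22 in MP cells (mean), and Grik4 rose by 1.16 ± 0.22. Grid1, an orphan delta receptor with roles in synapse organization, read 5.30 and 4.74 against 6.74 to 7.86 and was lower against each subtype. The next brightest probe sets of Grik3 and Grid1 gave -0.072 and -0.25 against the 4 subtypes, neither called. Grm4, a presynaptic metabotropic receptor, was called higher but not without J replicate 2 (0.79, adjusted p = 0.0713).

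Among 22 sodium and potassium channel genes 2 rose and 0 fell, with 7 higher and 2 lower at an unadjusted p under 0.05, and the rises numbered 5 without J replicate 2 and 4 without starburst replicate 1. Over all genes 2.8% were called higher and 3.26% lower, and 13% were higher and 15.2% lower at an unadjusted p under 0.05. These shares also stand beside the other list counts of this paragraph. Kcna1, a delayed rectifier of axons, read 11.04 and 10.51 in J cells, like PaxCre cells (mean 11.04) and unlike AII (4.75) and starburst cells (5.06). Kcnd3, an A-type potassium channel, read 11.32 and 11.61, beside 12.10 in MP cells. Its call was lost with the next brightest probe set and with the median over probe sets. Of 15 calcium channel genes 3 rose and 1 fell, the fall being lost without J replicate 2. Cacna2d3, an auxiliary subunit, was high in J cells at 10.07 and 10.19 and MP cells at 11.50, and 5.67 to 6.32 in the other subtype means. Of 30 genes of synaptic vesicles and release 2 rose, the calcium sensors Syt7 (10.92 and 10.43) and Syt9 (7.78 and 7.97). Sv2b, a vesicle glycoprotein, fell by 2.04 ± 0.27, at 7.70 and 6.44 in J cells, and lost its call with the next brightest probe set. Of 13 neuropeptide genes 1 rose and 2 fell, and the falls numbered 0 without J replicate 2. Tac1, the substance P precursor, read 11.37 and 10.18 in J cells and 12.05 and 12.18 in PaxCre cells, against 5.18 to 5.96 elsewhere, while its next brightest probe set gave -0.14 against the 4 subtypes. C1ql2, a secreted C1q-like synaptic protein, was also shared with PaxCre cells (8.96 and 8.39 beside a mean of 9.75).

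Cell adhesion genes changed in both directions. Their counts stand beside 2.8% of all genes called higher and 3.26% lower, and 15.2% lower at an unadjusted p under 0.05. Of 14 classical cadherin genes 5 rose and 2 fell, and without J replicate 2 the rises numbered 3. Besides Cdh22, Cdh13 read 10.51 and 9.83 against 5.86 to 9.70, with PaxCre cells nearest (difference 0.54 ± 0.22, adjusted p = 0.155). Cdh7 was shared with AII cells (9.07 and 8.57 beside a mean of 9.02). Cdh6 was lower in J cells than in each other subtype, at 7.38 and 7.46 against 8.38 to 11.15. Its next brightest probe set gave -0.35 against the 4 subtypes, which was not called. Cdh1, E-cadherin, was near the floor in J cells at 4.70 and 4.50, as in MP and PaxCre cells, and high in AII and starburst cells. Of 8 delta protocadherin genes 3 rose and 0 fell, and the median was 0.85. At an unadjusted p under 0.05, 7 were higher and 0 lower, where 13% of all genes were higher. Against PaxCre cells 1 was higher and 3 lower (median -0.70), and against starburst cells 2 and 2. Against MP cells 5 were higher and 1 lower, and against AII cells 6 and 0. In the order of these 4 pairs 1.35%, 5.32%, 5.22% and 11.3% of all genes were higher. The shares lower were 4.09%, 5.91%, 5.06% and 8.21%. Pcdh18 read 10.89 and 10.09 beside 10.55 in starburst cells and 5.46 in MP cells, Pcdh11x read 10.46 and 9.80, and Pcdh10, at 10.44 and 10.48, was lower than the mean of the C57BL/6 subtypes (-0.51).

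Of 23 immunoglobulin superfamily recognition genes 7 rose and 4 fell, and without J replicate 1 the falls numbered 1. Kirrel3, an adhesion protein of specific synapses, read 8.90 and 8.98 against 4.71 to 8.60. L1cam read 11.10 and 11.03, beside 11.11 in PaxCre cells and 8.67 to 9.06 in the other subtype means, and its next brightest probe set gave 0.078 against the 4 subtypes. Nrcam and Dscam also rose (1.83 ± 0.16 and 1.52 ± 0.22). Among 24 leucine-rich repeat and teneurin genes 4 rose and 2 fell, beside 2.8% and 3.26% of all genes, and the teneurins went apart. Tenm4 read 10.34 and 9.88 beside a PaxCre mean of 10.22, and Tenm1 9.98 and 9.77 beside 10.42. Tenm3 fell by 2.36 ± 0.16, at 8.05 and 7.36 beside 11.56 in starburst cells and 11.02 in PaxCre cells. Its next brightest probe set gave -0.96 against the 4 subtypes, under the size limit. Lrrtm1, a synapse-organizing protein, rose by 2.72 ± 0.39.

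Of guidance genes, 2 of 24 semaphorin and plexin genes rose and 2 fell, and 3 of 13 Slit, Robo and netrin genes rose. The shares over all genes were 2.8% called higher and 3.26% lower. Nrp2, a semaphorin receptor, read 10.78 and 11.41, close to MP cells at 10.91 (difference 0.18 ± 0.32, adjusted p = 0.745). Plxnb1 read 8.95 and 8.89 against 7.47 to 8.14. The secreted semaphorin gene Sema3a fell with Sema3d, at 7.16 and 5.76 against 7.22 to 9.66. Both Plxnb1 and Sema3a lost their call with the next brightest probe set and with the median over probe sets. Robo1 (9.52 and 10.59) was high in PaxCre cells too, at 11.22, and differed from the 4 subtypes by 0.12 with its next brightest probe set. Unc5c, a netrin receptor, read 10.50 and 9.78 against 5.80 to 9.90, and its call was lost with the next brightest probe set. Efnb3, a transmembrane ephrin, read 10.35 and 10.48 against 8.25 to 10.11. Among 11 genes of lysyl oxidases and elastic fibres Loxl1 alone rose, while Fbn2 and Efemp1 fell. The call of Fbn2 was lost without J replicate 1 (-0.84, adjusted p = 0.223), and that of Efemp1 without J replicate 1 (adjusted p = 0.0517) or replicate 2 (0.0983).

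Of 16 immediate early and stress genes 1 rose and 4 fell, and without J replicate 2 the falls numbered 0, with 8 of the 16 lower at an unadjusted p under 0.05 when both arrays were used. Fos, an activity-induced gene, read 9.43 and 8.63 in J cells and 9.91 to 11.81 in the others, but its difference without J replicate 2 was -1.26 (adjusted p = 0.217). Jun became -1.16 (adjusted p = 0.139) and Hspa1b -1.49 (adjusted p = 0.0529) in the same way. Neurod1, a basic helix-loop-helix gene of developing amacrine and photoreceptor cells, fell by 1.76 but not without J replicate 2 (-1.13, adjusted p = 0.106). Fosl2, by contrast, rose, at 7.68 and 7.86 against 4.64 to 7.31, but its next brightest probe set gave 0.058. Over all genes 2.8% were called higher and 3.26% lower, and 15.2% were lower at an unadjusted p under 0.05.

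The J name is shared with a ganglion cell subtype of the series, sorted as YFP-positive and Thy1-positive from C57BL/6. Jam2, which encodes the adhesion protein JAM-B, averaged 11.07 ± 0.28 (SD, n = 2) in J ganglion cells, the highest of the 13 subtypes. In J amacrine cells it read 6.13 and 6.27, the lowest of the 13, and it was called lower than in the 4 other amacrine subtypes (-1.36 ± 0.23, adjusted p = 0.000702), while its next brightest probe set gave -0.16 (adjusted p = 0.617). Thy1 read 8.62 and 8.97 in J amacrine cells, above AII and PaxCre cells and below starburst and MP cells, and did not pass the size limit (0.91 ± 0.26).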

How the data were processed

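The labels describe 26 arrays, of which 10 entered the contrasts. The deposited values are linear intensities. How the authors summarised and scaled them is not given in the sources used here. They were taken as log2(intensity + 16) and quantile normalized over 26 arrays. Control probe sets (64) and probe sets with no symbol (9160) or several (932) were left out. The brightest of 34945 probe sets stood for each of 18193 genes, and 13951 genes with at least 2 arrays above 6.14 (the overall median, log2) were tested. R 4.3.3 and limma 3.58.1 fitted a mean for each of 13 subtypes (13 residual and 4.59 prior degrees of freedom). Tests were two-sided, with Benjamini-Hochberg adjustment within each contrast, and the other 4 subtypes had equal weight. The subtype, its members and the gene lists were chosen with earlier results of these data known. Named genes were the given markers, genes of the line and gates, the 15 largest separated rises and 12 falls, the 8 leading genes each way against all 4 subtypes, and list members. Lists are described by counts and medians. The fit was tested on simulated data. Alternatives covered normalization, filters, probe sets, pseudocounts, variance models, strain, subtypes and each array left out in turn.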

Additional observations from a re-analysis of the deposited data

How the results depend on the processing

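Each result was recomputed under up to 30 alternatives, of which 24 apply to the pairwise and all-4 counts. The counts of higher and lower genes were 251 and 233 with a pseudocount of 64, 163 and 210 with the next brightest probe set (8197 genes tested), and 1 and 0 with subtype as a random block. The higher count was 591 without PaxCre on the other side, and the lower was 287 with the median over probe sets and 242 with array weights. Leaving out single arrays gave 342 to 597 higher and 409 to 672 lower. The next brightest probe set gave 634 calls against starburst, 609 against MP, 1058 against AII and 336 against PaxCre cells, and 21 higher and 21 lower against all 4. Pseudocount 64 gave 939 against MP and 10 lower against all 4, for which 10 amacrine arrays alone and the median over probe sets each gave 25 and array weights 20. Single arrays left out gave 1202 to 1892 calls (starburst), 1151 to 1745 (MP), 1943 to 2916 (AII), 389 to 1102 (PaxCre), and 26 to 84 higher and 23 to 138 lower against all 4.

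With the next brightest probe set Loxl1 gave -0.060 (-0.24 against starburst), Cryab -0.12, Jag1 0.055, Jdp2 0.20, Sema3d 0.044, Tdrd7 0.016, Nfia 0.22, Tac1 -0.14, Tfap2c -0.27, Ddc 0.0088, Gad2 1.02 and Slc32a1 -0.16, whereas the median of a gene's probe sets gave 0.19 for Gad2 and -0.085 for Slc32a1. Against C57BL/6 subtypes Gad1 gave -1.53, Lhx9 -0.066, Pcdh10 -0.51 and Slc32a1 -0.38, and Slc32a1 gave -0.047 without MP and -0.036 without AII on the other side. Th ranged from -0.44 to 0.040 with single arrays left out. Slc6a9 against AII gave 0.051 as deposited, 0.071 median centred and -0.31 to 0.20 with single arrays left out. Ebf1 against MP gave -0.55 (median over probe sets), -0.14 (next brightest) and -0.17 to 0.34 with single arrays left out. The next brightest probe set also ended the calls of 22 named genes with no change of sign, among them Slc6a9 (0.53), Shisa9 (0.59), Gad1 (0.13), Gabra2 (0.22), Robo1 (0.12), L1cam (0.078), Fosl2 (0.058), Gabrd (-0.0070), Grik3 (-0.072) and Grid1 (-0.25), and the median over probe sets ended 18. The cause was not tested.

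Deviations of replicate 1 from the subtype mean correlated at -0.13 to 0.17 over 10 subtype pairs, with 1 above 0.1. These correlations cannot show whether arrays of the same replicate number were handled together. With the replicate number as a block 396 genes were higher and 467 lower. With 2 arrays per subtype and dim genes near the floor, small differences were not detectable.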

Other observations

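A few genes called against all 4 subtypes fell outside the rule for naming and were chosen after their values were seen. Ptprm, a receptor tyrosine phosphatase that mediates adhesion, read 10.61 and 10.50 on the J arrays and 6.53 to 8.74 on the 8 others (difference 2.89 ± 0.25, limma adjusted p = 4.74e-07). Dct, an enzyme of melanin synthesis, read 9.19 and 10.27 against 6.27 to 8.58 (2.59 ± 0.31, adjusted p = 2.09e-05). Both were higher in J cells on each array.

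A pair of glutamate transporter genes rose as well. Slc1a3, the transporter GLAST of Muller glia, read 8.86 and 9.14 against 6.01 to 8.00 (2.28 ± 0.24, adjusted p = 5.95e-06), and Slc1a6, the transporter EAAT4 of Purkinje cells, read 8.58 and 9.15 against 6.06 to 7.59 (1.97 ± 0.32, adjusted p = 0.000448). Asic1, a proton-gated sodium channel, read 8.73 and 10.09 against 7.03 to 8.49. For each of the 3 genes both J arrays lay above the 8 others.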
